A study of Mus musculus with 192 samples.

Results

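Amelx, Ambn, Enam, Amtn, Odam, Klk4, Mmp20 and Dspp are the main genes of enamel and dentin formation, and they were followed by name through mandibular bone (MdB), with temporal bone (TpB) for reference. All 8 were found among the 54752 genes of the table. RNA was sequenced from male C57BL/6J mice, labelled as 12 weeks old, that were either wild type (WT) or homozygous for the Nrf2-null allele (Nrf2-KO, Nfe2l2 tm1Ymk), a germline change carried by every cell of the animal. Flight mice (FL) spent about a month singly housed on the International Space Station and were dissected after their return to Earth, while ground control mice (GC) were singly housed in the same cages in Japan later in the same year, so that flight cannot be told apart from the season, place and journey of either run. Nrf2-KO mice had been screened beforehand with ketamine and xylazine to remove animals with an intrahepatic shunt. MdB was sequenced in 3 GC_WT, 3 FL_WT, 3 GC_KO and 3 FL_KO mice. FL_KO mouse 04, which had a severe intestinal haemorrhage, was left out, which leaves 2 FL_KO and 11 mice in all. TpB had 6 mice in each group, of which 23 were used. Each mouse gave 1 library per tissue, and a number that occurs in flight and on the ground stands for separate mice.

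Enamel is laid down by ameloblasts, an epithelial cell layer that first secretes a protein matrix and later removes it while the mineral hardens. Dentin is made by odontoblasts on the other side of the same boundary. The rodent incisor grows throughout life from a stem cell niche at its base, so that an adult mouse jaw holds ameloblasts at every stage at the same time. The labels name the tissue mandibular bone and do not say which teeth were in the piece that was taken. Nrf2, encoded by Nfe2l2, is the transcription factor that switches on antioxidant and detoxifying genes through the antioxidant response element, and the comparisons ask whether a month in flight or the loss of Nrf2 altered the enamel and dentin genes.

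Expected counts per gene (reads assigned by RSEM, summed) came to between 14285028 and 14717025 per library in MdB and between 13483678 and 15088482 in TpB. Nfe2l2 served as the check of the genotype, with 89.3 to 109 TPM (a level per transcript length, on a scale with the same total in every library) in the 6 WT mice and 30.3 to 37.5 TPM in the 5 Nrf2-KO mice, a log2 fold change of -1.54 (95% interval -1.70 to -1.38, edgeR adjusted p = 7.14e-07). Of 10 Nrf2 target genes, Gsta4, a glutathione transferase, was the only one called for genotype over flight and ground in MdB, at -1.67 (edgeR adjusted p = 5.29e-04). Of 11 osteoblast and osteocyte markers, Bglap and Col1a1, both also made by odontoblasts, were the highest, at medians of 43139.9 and 16349.6 TPM in MdB. Sost, the sclerostin gene of osteocytes, and Ifitm5, a bone-restricted membrane protein of osteoblasts, were the lowest, at 5.14 and 6.35. The medians of the other markers ran from 23 to 4297 TPM.

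Of the 8 genes, 5 lie on chromosome 5 and all 5 on the plus strand (GRCm38): Odam at chr5:87885029-87894174, Amtn at chr5:88376108-88385916, Ambn at chr5:88455991-88468531, Enam at chr5:88487975-88506049 and Dspp at chr5:104170712-104180127. Ambn and Enam are separated by 19443 bases, Amtn and Ambn by 70074, Odam and Amtn by 481933, and Enam and Dspp by 15664662. Milk casein genes lie beside Odam, and of these Csn1s1, Csn2, Csn1s2a and Csn1s2b had median levels of 0 TPM in MdB, while Csn3, the kappa-casein gene, had 13.7 TPM. Amelx lies on the minus strand of the X chromosome (chrX:169176114-169187200) inside Arhgap6, which is read from the other strand and reached 2.58 to 7.33 TPM. Mmp20 (chr9:7628231-7674979, plus strand) overlaps the antisense gene AV064505, which stayed at or below 0.31 TPM, and Klk4 lies at chr7:43881160-43885804. The strand setting of the counting is not given in the sources used here, so reads of these overlapping pairs may have been shared, and the partner levels are small beside those of Amelx and Mmp20.

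The RefSeq promoter table (GRCm38.p6) held windows for 7 of the 8 genes, with none for Dspp. The 250 bases before the start are shown for the 3 enamel matrix genes, which varied together between mice, and for Odam, which did not vary with them. Capitals mark matches, on either strand, to the core of the antioxidant response element (TGACNNNGC), the CCAAT box (CCAAT or ATTGG), the TATA box (TATAAA or TTTATA) and the core bound by Runx factors (TGTGGT or ACCACA).
Amelx, chrX:169187210-169187459, minus strand: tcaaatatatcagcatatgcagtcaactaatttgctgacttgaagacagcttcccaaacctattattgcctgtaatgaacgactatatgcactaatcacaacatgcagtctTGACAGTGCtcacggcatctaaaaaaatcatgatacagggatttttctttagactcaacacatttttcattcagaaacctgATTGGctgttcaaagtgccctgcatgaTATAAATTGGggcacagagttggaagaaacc
Ambn, chr5:88455741-88455990, plus strand: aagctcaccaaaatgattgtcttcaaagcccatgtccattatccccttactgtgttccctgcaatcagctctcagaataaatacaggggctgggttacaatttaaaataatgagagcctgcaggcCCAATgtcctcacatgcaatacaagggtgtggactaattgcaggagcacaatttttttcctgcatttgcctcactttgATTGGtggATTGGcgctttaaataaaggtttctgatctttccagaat
Enam, chr5:88487725-88487974, plus strand: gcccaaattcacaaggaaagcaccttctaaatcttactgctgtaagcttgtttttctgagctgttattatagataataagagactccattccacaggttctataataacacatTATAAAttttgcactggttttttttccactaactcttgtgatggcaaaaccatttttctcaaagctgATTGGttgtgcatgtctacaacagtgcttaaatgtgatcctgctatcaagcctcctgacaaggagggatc
Odam, chr5:87884760-87885009, plus strand: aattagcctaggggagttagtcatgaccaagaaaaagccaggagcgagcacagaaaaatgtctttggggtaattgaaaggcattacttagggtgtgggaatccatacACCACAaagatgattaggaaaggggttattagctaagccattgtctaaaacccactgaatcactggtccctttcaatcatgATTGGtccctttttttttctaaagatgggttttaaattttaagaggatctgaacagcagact
A CCAAT box was found in 5 of the 7 windows (Amelx, Ambn, Enam, Amtn and Odam), against 33.8% of all 32851 windows of this length. TATAAA was found in 3 (Amelx, Enam and Mmp20), against 12.4% of all windows, and in Amelx it overlaps a CCAAT box. The antioxidant response element core was found in 1, Amelx, as TGACAGTGC, against 10.2% of all windows, and the Runx core in 1, Odam, against 14% of all windows. The Klk4 window held none of the motifs. These are letter matches only, and binding was not measured.

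Together the 8 genes took up 11 to 22% of all TPM in MdB (median 17.4%), and 8.56 to 14.4% of all counts. Amelx was the most abundant of all 54752 genes by its median, Ambn ranked 3, Odam 5, Dspp 13, Amtn 21 and Enam 31, while the proteases Klk4 and Mmp20 ranked 248 and 308. The order Amelx, Ambn, Odam, Dspp, Amtn, Enam, Klk4 held between each pair of neighbours in 11 of 11 mice. The last pair, Klk4 and Mmp20, did not differ beyond its spread, since the ratio of their TPM ran from 0.843 to 1.79 and Klk4 was the higher in 9 of 11 mice.

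**Figure D1:**
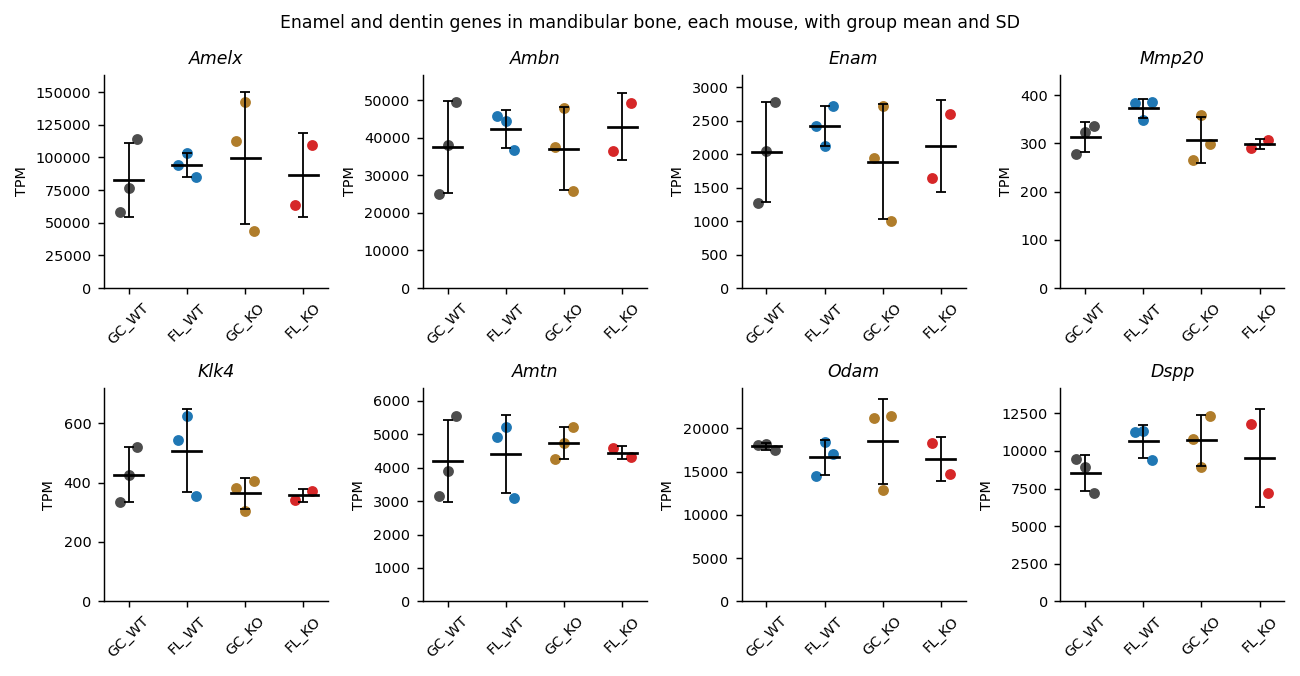
TPM (axes from 0) of the 8 genes in each MdB mouse of the groups GC_WT, FL_WT, GC_KO and FL_KO; points are mice, the line is the group mean and the bar its SD. The groups overlap for every gene except Mmp20, where the 3 FL_WT mice lie above the 3 GC_WT and the 2 FL_KO mice.

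Amelx encodes amelogenin, the main protein of the forming enamel matrix. It stood at 58458, 76241 and 113941 TPM in GC_WT mice 03, 07 and 08, at 94529.8, 103549 and 84881 in FL_WT mice 03, 05 and 06, at 112997, 142209.5 and 43336 in GC_KO mice 01, 02 and 04, and at 63538 and 109229.6 in FL_KO mice 01 and 02. Both the highest and the lowest value thus came from GC_KO mice, and the 4 groups overlapped. Over the 11 mice the mean was 91174 ± 29112 TPM (SD, n = 11), with a 3.28-fold range, the widest of the 8 genes. The FL_WT mice were the closest together, at 94320.1 ± 9336 TPM (SD, n = 3) against 82880.0 ± 28331 (SD, n = 3) in GC_WT and 99514 ± 50797 (SD, n = 3) in GC_KO, although a difference in spread was not tested.

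Ambn encodes ameloblastin, a matrix protein that holds ameloblasts to the forming enamel. Its TPM were 24941, 37976 and 49449 in GC_WT, 45896, 44459.7 and 36631 in FL_WT, 37454, 47912 and 25925 in GC_KO and 36618 and 49277 in FL_KO, in the same order of mice. The lowest value belonged to GC_WT mouse 03 and the next to GC_KO mouse 04, and the groups overlapped. The mean was 39685 ± 8659 TPM (SD, n = 11). Enam encodes enamelin, the largest and least abundant of the classical enamel matrix proteins. Its TPM were 1275, 2045 and 2773 in GC_WT, 2426, 2117 and 2719.6 in FL_WT, 1942, 2723 and 1003 in GC_KO and 1637 and 2605 in FL_KO. GC_WT mouse 03 and GC_KO mouse 04 were again the lowest, and the mean was 2115 ± 609 TPM (SD, n = 11).

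Mmp20 encodes enamelysin, the metalloproteinase that cleaves the matrix proteins while they are being secreted. Its TPM were 278, 324 and 337 in GC_WT, 383, 349 and 385 in FL_WT, 266, 359.8 and 298 in GC_KO and 291 and 306 in FL_KO. It was the steadiest of the 8 genes, with a 1.45-fold range over 11 mice (325 ± 41.1 TPM, SD, n = 11). The 3 FL_WT mice were above all GC_WT mice and above both FL_KO mice. Among the 16361 genes tested in MdB, 13.9% did not overlap between FL_WT and GC_WT, and 17.9% did not overlap between FL_KO and FL_WT, so 1 of 8 members is no more than the background share in either comparison. The log2 fold change of Mmp20 was 0.17 in FL_WT against GC_WT (-0.12 to 0.45, edgeR adjusted p = 0.757) and -0.24 in FL_KO against FL_WT (-0.56 to 0.08, adjusted p = 0.898).

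Klk4 encodes the serine protease that clears the remaining matrix during maturation. Its TPM were 333, 426 and 518 in GC_WT, 542, 625 and 353 in FL_WT, 383, 303 and 404 in GC_KO and 342 and 373 in FL_KO. The 3 highest values all came from WT mice, yet the other WT mice lay between 333 and 426, so the genotypes overlapped (418 ± 101 TPM over all mice, SD, n = 11).

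Amtn encodes amelotin, which maturation-stage ameloblasts place in the basal lamina at the enamel surface. Its TPM were 3161, 3895 and 5560.1 in GC_WT, 4929.8, 5215 and 3086 in FL_WT, 4248, 4749.8 and 5232 in GC_KO and 4602 and 4309 in FL_KO. Both the lowest and the highest values were in WT mice, and the mean was 4454 ± 816 TPM (SD, n = 11). Odam, the odontogenic ameloblast-associated gene, is made by the same late ameloblasts and by the junctional epithelium that seals the gum to the tooth. Its TPM were 18035, 18211 and 17498 in GC_WT, 14483, 18426 and 17010.5 in FL_WT, 21204, 12847 and 21471 in GC_KO and 18304 and 14713 in FL_KO. The 3 GC_WT mice had an SD of 371 TPM, whereas the GC_KO mice held both the 2 highest and the lowest value, and the mean was 17473 ± 2656 TPM (SD, n = 11).

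Dspp encodes dentin sialophosphoprotein, the main non-collagen protein of dentin and made mainly by odontoblasts. Its TPM were 9441, 8956 and 7207 in GC_WT, 11237, 11328 and 9370.1 in FL_WT, 10789, 8958 and 12346 in GC_KO and 11821 and 7225 in FL_KO. FL_WT and GC_WT overlapped, with the lowest FL_WT mouse at 9370.1 and the highest GC_WT mouse at 9441 TPM. The log2 fold change between them was 0.26 (-0.20 to 0.72, edgeR adjusted p = 0.772). The mean was 9879.9 ± 1759.7 TPM (SD, n = 11).

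None of the 8 genes passed the test for flight or genotype in MdB. By edgeR's quasi-likelihood test over 16361 genes, 0 of 8 were called at an adjusted p under 0.05 in FL_WT against GC_WT, FL_KO against GC_KO, GC_KO against GC_WT or FL_KO against FL_WT, and in this fit 0 of 8 had an unadjusted p under 0.05 in any of them. The share of all tested genes called was 0% for both flight comparisons, 0.244% for GC_KO against GC_WT and 0.208% for FL_KO against FL_WT. In FL_WT against GC_WT, where edgeR called 0 genes, 1420 genes were under 0.05 before adjustment and DESeq2 called 60, and in FL_KO against GC_KO the counts were 570 and 7. DESeq2 called 0 of the 8 as well. Comparisons within MdB share their groups, so their values are not independent of each other.

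Taken over both genotypes, flight minus ground gave log2 fold changes of -0.07 for Amelx (95% interval -0.75 to 0.62), 0.15 for Ambn (-0.36 to 0.66) and 0.15 for Enam (-0.45 to 0.75). For the proteases the values were 0.05 for Mmp20 (-0.16 to 0.27) and 0.08 for Klk4 (-0.33 to 0.49). Amtn was at -0.04 (-0.47 to 0.38), Odam at -0.17 (-0.46 to 0.13) and Dspp at 0.03 (-0.31 to 0.38). A change of 2-fold in either direction, which is 1 on this scale, lies outside all 8 intervals, while smaller changes of the matrix genes do not. The lowest adjusted p among the 8 was 0.86, for Odam. Over all genes edgeR called 0 here, a share of 0%, with 1086 under 0.05 before adjustment and 20 called by DESeq2.

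For Nrf2-KO against WT over flight and ground, Klk4 was the member farthest from 0, at -0.33 (-0.74 to 0.08, unadjusted p = 0.105, adjusted p = 1), followed by Amelx at 0.13 (-0.55 to 0.81). Mmp20 was at -0.12 (-0.34 to 0.09), Amtn at 0.12 (-0.30 to 0.54) and Dspp at 0.12 (-0.22 to 0.47). Enam, Odam and Ambn were at -0.08 (-0.68 to 0.52), 0.06 (-0.24 to 0.35) and 0.05 (-0.46 to 0.57). In this comparison 0.513% of all genes tested were called, 84 in all, and 0 of the 8 were among them.

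**Figure D2:**
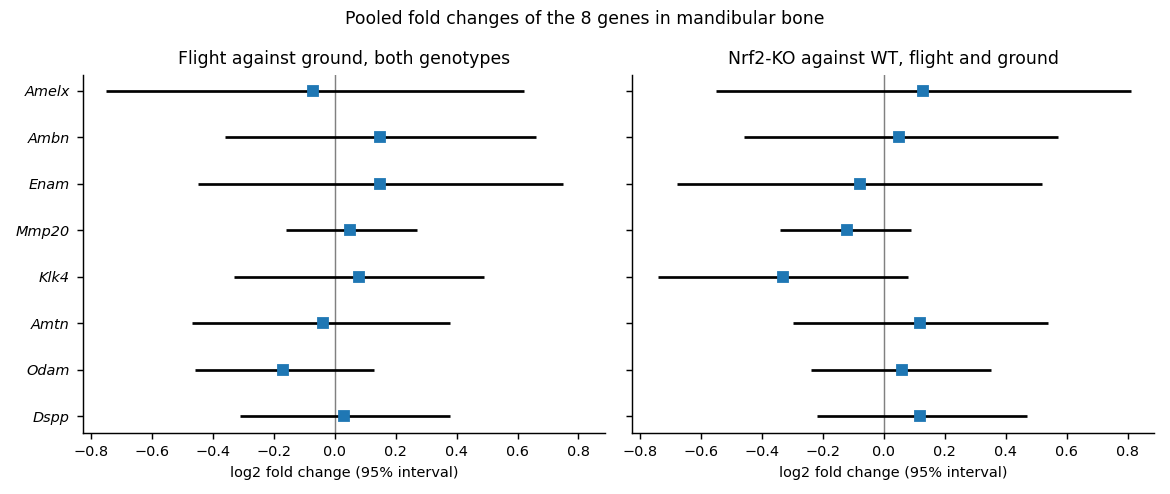
Log2 fold changes (x axis) of the 8 genes in MdB for flight against ground over both genotypes (left) and Nrf2-KO against WT over flight and ground (right); squares are edgeR estimates and lines are 95% intervals. Every interval crosses 0, and those of Amelx, Enam and Ambn are wider than those of Mmp20 and Odam.

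The flight responses of the 2 genotypes were also set against each other. Dspp showed the widest gap, with FL_WT against GC_WT at 0.26 (-0.20 to 0.72) and FL_KO against GC_KO at -0.19, and a difference of -0.45 (-1.14 to 0.25, edgeR adjusted p = 0.933). Amelx had a difference of -0.34 (-1.72 to 1.03), and the intervals of all 8 differences held 0. Over all genes the share called for this difference was 0%, with 827 genes under 0.05 before adjustment and 7 called by DESeq2. With 2 or 3 mice in a group the intervals on single comparisons are wide, and fewer cells of a type and less RNA per cell cannot be told apart in bulk tissue.

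Muscle and oral epithelium lie against the jaw and blood fills its marrow. For flight 0 markers of these tissues were called, as were 0% of all genes tested in MdB. The 10 skeletal muscle markers summed to 544 to 870.1 TPM in GC_WT, 111 to 365 in FL_WT, 493 to 1223 in GC_KO and 122 to 689 in FL_KO, with 10 of 10 detected in each group. Their median log2 fold change for flight over both genotypes was -1.43, with 0 of 10 called and 9 of 10 under 0.05 before adjustment. The oral keratinocyte list summed to 147 to 574 TPM in GC_WT and to 96.5 to 127 in FL_WT, and to 199 to 327 in GC_KO against 191 to 325 in FL_KO, with a median of -1.32 for flight over both genotypes and 0 of 7 called. The sums of the GC_KO and FL_KO mice thus overlapped on both lists, and those of the WT groups did not. The 7 erythroid markers summed to 451 to 786 TPM in GC_WT, 138 to 247 in FL_WT, 247 to 388 in GC_KO and 411 to 764 in FL_KO. The order of flight and ground was thus opposite in the 2 genotypes. The sums were not tested, and gene by gene 0% of all genes were called for the difference of flight responses. For the erythroid and neutrophil markers the values that follow are for flight in WT mice and not over both genotypes. The numbers of all genes under 0.05 before adjustment are given above for both flight comparisons. The median of the erythroid markers in FL_WT against GC_WT was -1.94, with 0 of 6 called and 5 of 6 under 0.05 before adjustment. The 8 neutrophil markers summed to 5.87 to 22.4, 2.73 to 4.96, 1.78 to 3.59 and 2.87 to 5.79 TPM in the same order of groups. Only 3 of the 8 passed the filter on low counts. Their median for FL_WT against GC_WT was -2.03, with 0 of 3 called and 3 of 3 under 0.05 before adjustment. Genes this low can pass the filter through the group where they are high, here GC_WT, so these 3 values are no independent sign of a fall. The part of these tissues in the values of the 8 genes was not tested.

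The levels of the 3 enamel matrix genes went up and down together from mouse to mouse. On log2(TPM + 1) over the 11 mice, Pearson's r was 0.90 for Ambn and Enam (Spearman's rho 0.84), 0.88 for Amelx and Enam (0.79) and 0.87 for Amelx and Ambn (0.84). Without the 2 mice farthest from the median of the first gene, r was 0.65, 0.63 and 0.70. Deviations from the group means gave 0.90, 0.93 and 0.91, so the pattern lies within the groups. Both genes of a pair come from the same library and share its total, so these are descriptions of 11 libraries.

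Odam went the other way, with r of -0.58 to Amelx, -0.63 to Ambn, -0.67 to Enam and -0.60 to Mmp20. Dspp did so as well, at -0.50 to Amelx and -0.60 to Enam, and was at 0.45 with Odam. Without the 2 mice farthest from the median of the first gene of each pair, Odam was at -0.41 to Amelx, -0.65 to Ambn, -0.64 to Enam and -0.57 to Mmp20, and Dspp at -0.41 to Amelx, -0.69 to Enam and 0.76 with Odam. With FL_KO mouse 04 included, Odam was at -0.49 to Amelx, -0.51 to Enam and -0.42 to Ambn, the last at -0.19 without the 2 farthest mice, and Odam and Dspp were at 0.11, so these values depend on single mice. TPM in a library add up to a fixed sum, and the part of this sum in the negative values was not tested. Mmp20 was nearest to Enam (0.65), and Klk4 was nearest to Amtn (0.55; 0.87 for deviations from the group means). Odam, which late ameloblasts also make, was at 0.15 with Klk4 and -0.02 with Amtn. Of the 28 pairs, 19 were above 0, with a median r of 0.151.

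**Figure D3:**
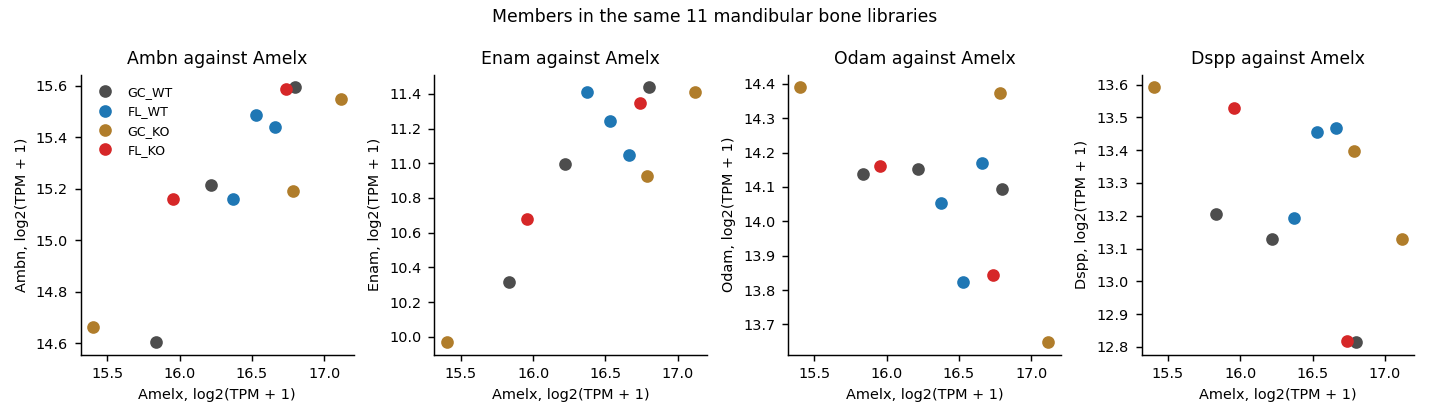
Log2(TPM + 1) of Ambn, Enam, Odam and Dspp (y axes) against that of Amelx (x axis) in the 11 MdB libraries, coloured by group; each point is 1 mouse, and axes do not start at 0. Ambn and Enam rise with Amelx (r of 0.87 and 0.88), whereas Odam and Dspp are lower in the mice with high Amelx (r of -0.58 and -0.50).

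As ratios, which do not depend on the sum, Amelx over Ambn had a median of 2.3 and ran from 1.67 to 3.02 over the 11 mice, a 1.8-fold range. The ratio of Enam to Amelx had a 1.86-fold range and that of Ambn to Enam a 1.92-fold range. The ratio of Mmp20 to Amelx ranged 2.92-fold, that of Amtn 3.61-fold, Klk4 4.37-fold, Dspp 4.52-fold and Odam 5.48-fold. Amelx was 2.02 times Odam in GC_KO mouse 04 and 11.1 times Odam in GC_KO mouse 02, and these 2 mice are of the same group. All 3 ratios among the matrix genes thus had a narrower range than the ratio of any other member to Amelx, a difference in range that was not tested. Amelx itself had the widest range of the members, at 3.28-fold, which widens ratios to it. Between neighbours in level outside the matrix genes, Odam over Dspp ran from 1.29 to 2.43. Dspp over Amtn ran from 1.3 to 3.04 and Klk4 over Mmp20 from 0.843 to 1.79. None of these was as narrow as Amelx over Ambn, but that of Odam over Dspp was close to the ranges among the matrix genes.

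By the same correlation, the non-member genes with a pattern most like that of Amelx among 11060 compared were Aplp1 (r = 0.962), Chst1 (0.955), Galnt12 (0.945), Angptl7 (0.907) and Rogdi (0.904). Aplp1 is a member of the amyloid precursor family, Chst1 a sulfotransferase and Galnt12 an enzyme that starts O-linked sugar chains. Nearest to Odam were Lxn (0.945), Pitx1 (0.943), Vwa1 (0.899), Gm12435 (0.892) and Cd74 (0.892), of which Pitx1 is a homeobox factor of the jaw and hind limb. Nearest to Dspp were Cpz (0.918), Ackr4 (0.915), Gpank1 (0.911), Pcsk5 (0.911) and Jam2 (0.901). These are the highest of many correlations over 11 mice. None of the 15 genes was called for flight (0% of all genes tested) or genotype (0.513%).

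No other enamel gene was called for flight either, where 0% of all genes tested were called. Of 28 other genes known for enamel formation, 27 were in the table and 26 passed the filter on low counts. Acp4, the acid phosphatase mutated in a form of amelogenesis imperfecta, had a median of 378 TPM, Lamb3, a laminin chain of the layer that anchors ameloblasts, had 290.5, and the transcription factor Sp6 had 259. With flight 0 of 26 were called, with a median log2 fold change of 0.02. With genotype 1 of 26 rose and 0 fell, with a median of 0.01, where 0.513% of all genes tested were called.

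The gene that rose was Odaph, odontogenesis associated phosphoprotein, whose mutation in people causes hypomaturation of enamel. It had 33.2, 36 and 44 TPM in GC_WT mice 03, 07 and 08, 30.2, 30.8 and 29.8 in FL_WT mice 03, 05 and 06, 56.6, 42.4 and 64.4 in GC_KO mice 01, 02 and 04, and 55.6 and 45.3 in FL_KO mice 01 and 02. On the ground, GC_KO mouse 02 (42.4 TPM) was below GC_WT mouse 08 (44 TPM), and in flight the groups did not overlap, as for 17.9% of all genes tested. Over flight and ground its log2 fold change for Nrf2-KO against WT was 0.68 (0.40 to 0.95, edgeR adjusted p = 0.0389). The call was lost when FL_KO mouse 04 (32.3 TPM) was included (0.59, adjusted p = 0.164) and in 9 of the 11 fits that left out 1 mouse, with fold changes of 0.62 to 0.75 and an adjusted p of up to 0.258, the latter without FL_KO mouse 01.

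Of all genes tested in MdB, 0% were called for flight and 0.513% for genotype. Among other groups of the tooth, 0 of 11 dental epithelium genes (median log2 fold change for flight -0.02) and 0 of 10 odontoblast and pulp genes (0.06) were called for flight, and 0 of each for genotype (medians -0.13 and -0.02). Krt14 and Krt5, the keratins of basal epithelium, were the most abundant of the former at medians of 2016 and 1367 TPM. Phex, an endopeptidase of mineralizing cells, and Nes, the nestin gene, led the latter at 307 and 186 TPM. Of the bone and dentin matrix genes that lie next to Dspp, Dmp1 had 104 TPM, Ibsp 80 and Spp1 28.7, while Mepe was at 0. For flight over both genotypes 0 of the 3 tested were called, with a median of 0.70 and Dmp1 at 1.13 (0.13 to 2.14, edgeR adjusted p = 0.719).

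The 8 genes set MdB apart from TpB of the same mice by a wide margin. The lowest Amelx level in MdB was 43336 TPM, and the highest of 23 TpB libraries was 43. In TpB the 8 genes together made up a median of 0.00153% of TPM. Fitted over the 11 mice that had both bones, with the mouse as a block, all 8 were called higher in MdB, where 77.7% of the 16549 genes tested differed in one direction or the other. Their median log2 fold change was 12.72 and that of all genes was 0.01. Amelx led at 14.07 (12.14 to 16.00), followed by Ambn at 13.98, Dspp at 13.63, Enam at 13.09 and Odam at 12.36 (10 to 14.71, edgeR adjusted p = 2.36e-07), and Amtn, Mmp20 and Klk4 were at 11.34, 11.29 and 11.08. Low counts in TpB make these fold changes depend on the smoothing in the fit. Of the 11 TpB libraries in it, 9 are numbered 1 to 12 and 2 are numbered 145 to 156, and the former hold most of the reads of these genes in TpB, as given below by library, so the folds and their order rest on those reads.

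Of the other enamel genes 25 of 26 were higher in MdB, with a median of 5.44. Acp4 was at 13.53 (13.01 to 14.04), Car6, a secreted carbonic anhydrase, at 9.38 and Odaph at 9.16. Car2, the carbonic anhydrase of red cells and osteoclasts, was the 1 lower, at -1.90 (-2.28 to -1.51). All 10 odontoblast and pulp genes were higher (median 3.21), as were 7 of 11 dental epithelium genes with 3 lower. Of the bone and dentin matrix genes beside Dspp, Dmp1 was higher (1.35) and 2 of 4 were lower, with Spp1 at -5.34 and Mepe at -8.68. Of the 11 osteoblast and osteocyte markers 8 were higher and 2 lower, the latter Sost at -1.30 and Phospho1, a phosphatase of mineralizing cells, at -1.19. Every tested marker of blood, muscle, cartilage and inner ear was lower in MdB. These were 8 of 8 neutrophil, 7 of 7 erythroid, 10 of 10 muscle, 4 of 4 cartilage and 7 of 7 inner ear genes. The bones thus differed in marker RNA well beyond the tooth genes, where 77.7% of all genes tested differed in either direction. Cell content was not measured.

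In TpB itself, 6 of the 8 genes passed the filter on low counts, and Mmp20 and Klk4, at no more than 0.26 and 0.8 TPM, did not. None of the 6 was called in any comparison, where the share of all 18184 genes called was 0% for the flight comparisons, 0.198% for GC_KO against GC_WT, 0.203% for FL_KO against FL_WT and 0.363% for genotype over flight and ground. None of the 6 was separated between 2 groups, against 1.54% of all genes for FL_WT and GC_WT, 0.176% for FL_KO and GC_KO, 0.242% for GC_KO and GC_WT and 0.715% for FL_KO and FL_WT. By group, Amelx had a lowest, median and highest level of 0, 1.96 and 8.31 TPM in GC_WT, 0, 3.7 and 43 in FL_WT, 0, 3.18 and 8.38 in GC_KO, and 0, 0 and 12 in the 5 FL_KO mice. The spread lay within the groups and followed the number that the labels give each library. The 12 TpB libraries numbered 1 to 12 held 28 to 251 Amelx reads each, and the 12 numbered 145 to 156 held 0 or 1.

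Each group had 3 mice in either range, FL_KO mouse 04 included. Among libraries 1 to 12, Amelx was at 5.46, 8.31 and 3.91 TPM in GC_WT, 7.17, 7.59 and 43 in FL_WT, 6.59, 8.38 and 6.16 in GC_KO, and 12 and 7.97 in the 2 FL_KO mice used. Within this range the groups overlapped, with 1 FL_WT mouse far above the rest. Ambn and Enam split by number in the same way, at 2.06 to 15.8 against 0 to 0.15 TPM and at 0.12 to 1.22 against 0 TPM. Dspp ran from 0.58 to 2.85 TPM in libraries 1 to 12 and from 0 to 0.53 TPM in libraries 145 to 156, and Amtn from 1.24 to 5.5 against 0 to 2. With the library number range as a block, 0 of the 6 genes were called in any comparison. Flight over both genotypes was then at 0.81 for Amelx (-0.03 to 1.65, edgeR unadjusted p = 0.0584, adjusted p = 0.972), 0.86 for Enam (-0.20 to 1.92) and 0.68 for Ambn (-0.23 to 1.59). In FL_WT against GC_WT Amelx was at 1.53 (0.41 to 2.65, unadjusted p = 0.0101, adjusted p = 0.904), the 1 member under 0.05 before adjustment.

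The MdB libraries are numbered 13 to 24, and low counts of the same genes appeared in the tissues numbered next to them. Amelx was present at over 3 reads in 24 of 24 spleen libraries (numbers 25 to 48, 25 to 1221 reads, median 46) and 24 of 24 liver libraries (numbers 49 to 72, 22 to 662 reads, median 41). In white and brown fat, thymus, kidney and cerebrum, numbered 73 to 144 and 157 to 192, no library had over 3 Amelx reads. Over the spleen and liver libraries Amelx made up 26% and 26.7% of the summed counts of the 8 genes, Ambn 26.3% and 28.9%, and Dspp 18.8% and 21.9%, against 32.4%, 30.4% and 21.1% in MdB. Klk4 departed from this in spleen, at 10.2% against 0.293% in liver and 0.242% in MdB, and did so by genotype, at 0.266% over the 12 WT spleens and 28.6% over the 11 Nrf2-KO spleens. How these reads came to be there was not tested. The highest spleen and liver totals were 0.238% and 0.129% of the mean total in MdB, so low values of these genes outside the jaw are given here by library and not as levels of the tissue.

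Klk4 in spleen separated the genotypes without overlap, in flight and on the ground. Its lowest, median and highest levels were 0, 0 and 0.48 TPM in the 6 GC_WT spleens (0 to 4 reads), 0, 0.055 and 1.03 TPM in the 6 FL_WT spleens (0 to 9 reads), 4.77, 7.39 and 13.3 TPM in the 6 GC_KO spleens (42 to 118 reads) and 4.43, 7.93 and 22.9 TPM in the 5 FL_KO spleens (39 to 207 reads). Every Nrf2-KO spleen thus lay above every WT spleen, as 0.414% of the 16170 genes tested in spleen did in one direction or the other. This comparison was added after the values had been seen. The log2 fold change for Nrf2-KO against WT over flight and ground was 5.98 (4.96 to 7.01, edgeR adjusted p = 1.09e-08), where 3.61% of all genes tested were called, and it depends on the smoothing in the fit because WT counts are near 0. It was 6.19 on the ground and 5.78 in flight, a difference in flight response of -0.41 (-2.97 to 2.15, edgeR adjusted p = 0.999). Flight over both genotypes was at 0.91 (-0.57 to 2.39, edgeR adjusted p = 0.495). Of the 7 members that passed the filter in spleen, Klk4 was the 1 called for genotype. The level in Nrf2-KO spleen is small beside the 303 to 625 TPM of Klk4 in MdB, and elsewhere Klk4 reached at most 1.29 TPM in thymus, 0.8 in TpB and 0.57 in liver.

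**Figure D4:**
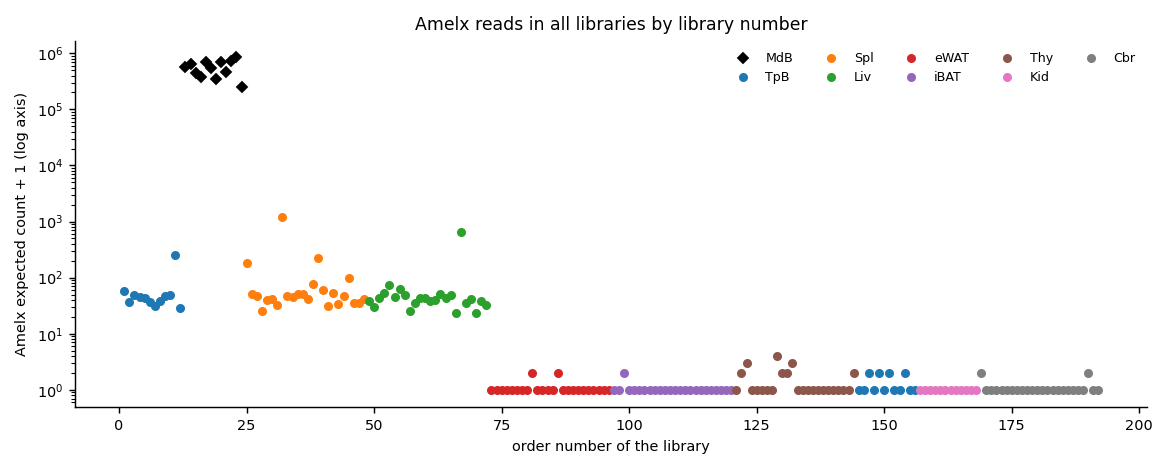
Expected counts of Amelx plus 1 (log axis) in each of the 192 libraries by the library's number in the labels (x axis), coloured by tissue. MdB (13 to 24) holds the high values, TpB 1 to 12, spleen and liver (up to 72) lie between, and the TpB libraries numbered 145 to 156 hold 0 or 1 read.

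Odam in TpB did not follow the library number alone. It was at 123 and 116 TPM in GC_KO mice 12 and 04, at 38.2 and 31.5 in GC_WT mice 07 and 06, at 31.6 in FL_WT mouse 03 and at 9.52 in FL_KO mouse 09, of which mice 04, 06 and 03 belong to libraries 1 to 12 and mice 12, 07 and 09 to libraries 145 to 156. FL_WT mouse 06 had 6.38 TPM and the other 16 mice had at most 2.75. The high libraries came from all 4 groups. Odam made up 40.9% of the counts of the 8 genes in libraries 1 to 12 and 87.3% in libraries 145 to 156, against 7.66% in MdB. For flight over both genotypes its log2 fold change in TpB was -2.57 (-5.18 to 0.04, edgeR unadjusted p = 0.0532, adjusted p = 1), and -2.67 (-5.36 to 0.02, adjusted p = 0.968) with the library number range as a block.

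**Figure D5:**
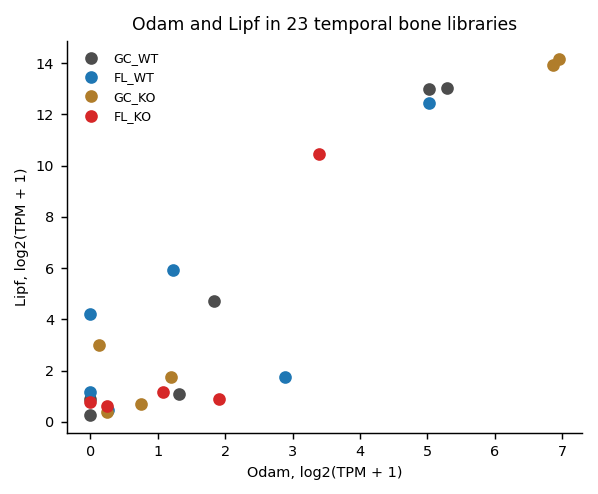
Log2(TPM + 1) of Lipf, a digestive lipase chosen after the Odam values had been seen (y axis), against that of Odam (x axis) in the 23 TpB libraries, coloured by group. The 6 libraries with the most Odam, from 9.52 to 123 TPM and from all 4 groups, are also those with the most Lipf.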

How the data were processed

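RNA-seq libraries of the 2 bones (poly(A) RNA, strand-specific kit per the labels) were mapped with STAR 2.6.1 to mm10 and quantified with RSEM 1.3.1 by the authors. The deposited expected counts are RSEM's estimates for each gene without normalization, in which reads that fit several genes are split between them. TPM were deposited by the authors as scaled by RSEM. A further 192 columns of FPKM were not used. Depth and precision are given by library totals and by the spread between mice.

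Conditions and mouse numbers came from the labels. Expected counts were rounded (6.01% were not whole) and tested with edgeR 4.0.16 in R 4.3.3 (filterByExpr by group, TMM, quasi-likelihood, 4 groups in 1 fit per bone, Benjamini-Hochberg over all genes tested, 0.05), with the mouse as a block between bones. Spleen was fitted in the same way for Klk4, a comparison added after its values had been seen. The steps were tested on simulated data, where 69.7% of 2-fold and 91% of 4-fold changes in FL_WT against GC_WT were recovered over 16106 genes and 5.33% of calls were false. The changed genes were drawn at random, so these rates are not those of the 8 genes. Correlations used a pseudocount of 1 and genes with a mean of at least 5 TPM. Alternatives were DESeq2 1.42.0, limma 3.58.1, RLE factors, scaling without the 8 genes, no filter, FL_KO mouse 04 included, only the groups compared, a block for the mouse number, a block for the range of library numbers (TpB only), and leaving out each mouse of the groups with up to 5. Genes were named as the 8 members, up to 4 most abundant and up to 4 called genes per list, 5 genes most like Amelx, Odam and Dspp, genes overlapping a member, and Nrf2 targets; 1 gene that the rule names is not reported here. Members and lists were chosen with earlier results of these data known. Coordinates came from GENCODE vM21 and promoters from RefSeq, both on GRCm38.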

Additional observations from a re-analysis of the deposited data

Results flagged for a closer look

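Groups of 4 to 10 mice, for all members in TpB and for Klk4 in spleen, were searched for 1 value far from the rest (Dixon's 95% limit). For normally spread values chance exceeds this limit in about 1 in 20 groups. That rate does not apply here, since many of these TPM are 0 or near it and TpB levels follow the library number. Where all other mice are at 0, as for Klk4 in TpB FL_WT, any value above 0 passes the limit. Of 36 groups of a gene and a condition, 8 were past the limit. In TpB FL_WT mouse 06 stood apart in 4 of them, with 43 TPM of Amelx (next mouse 7.59), 15.8 of Ambn (next 3.54), 1.22 of Enam (next 0.38) and 0.21 of Klk4 (next 0), the last from 2 reads. Odam was far above the rest at 31.6 TPM in FL_WT mouse 03 (next 6.38) and at 9.52 TPM in FL_KO mouse 09 (next 2.75). In spleen Klk4 was highest among its group at 0.48 TPM in GC_WT mouse 03 (next 0.12) and at 1.03 TPM in FL_WT mouse 08 (next 0.22). Outside the 2 bones, Amelx reached 1221 reads in a spleen library (FL_WT mouse 08) and 662 reads in a liver library (GC_WT mouse 07), above the 3 reads that a count of 0 allows. The sources of these reads were not tested.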

How the results depend on the processing

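The number of the 8 genes called was 0 in every comparison within a bone, and 8 between the bones, under every alternative run. Signs of fold changes near 0 did turn. Amelx for flight went from -0.07 to 0.07 with limma and 0.03 with the mouse number as a block, Amelx for genotype from 0.13 to -0.01 with limma, Amtn for flight from -0.04 to 0.30 with the block, and Odam for genotype from 0.06 to -0.01 with FL_KO mouse 04 included. When 1 mouse was left out, flight values ran from -0.31 to 0.12 for Amelx, -0.07 to 0.31 for Enam, -0.03 to 0.21 for Klk4, -0.14 to 0.10 for Amtn and -0.14 to 0.17 for Dspp. Genotype values ran from -0.12 to 0.32 for Amelx, -0.09 to 0.19 for Ambn, -0.30 to 0.09 for Enam, -0.01 to 0.26 for Amtn, -0.02 to 0.15 for Odam and -0.05 to 0.26 for Dspp. None of these passed the test in either direction, and the cause was not tested.

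The counts of all genes called moved more. For FL_WT against GC_WT, FL_KO against GC_KO, GC_KO against GC_WT, FL_KO against FL_WT, flight, genotype and the difference of flight responses, edgeR called 0, 0, 40, 34, 0, 84 and 0 genes in MdB, DESeq2 called 60, 7, 67, 82, 20, 128 and 7, and edgeR without the filter 86, 6, 67, 93, 23, 127 and 12. Limma gave 2, 2 and 25 for the first 3, and 1, 50 and 1 for the last 3. With FL_KO mouse 04 included FL_KO against FL_WT had 55, and with only the groups compared GC_KO against GC_WT had 21 in MdB and 22 in TpB (36 with all groups). In TpB DESeq2 called 7, 5, 65, 24, 106 and 2 where edgeR called 0, 0, 36, 0, 66 and 0, leaving out FL_KO against FL_WT, and limma called 42 for genotype. The mouse number as a block called 16 genes for FL_WT against GC_WT, 15 for flight and 12 for the difference in MdB, with 0 of the 8 among them. Under this block 4 of the 8 had an unadjusted p under 0.05 for FL_WT against GC_WT (median log2 fold change 0.71 against 0.13 without it, resting on 1 WT pair), 4 for the difference (-0.77 against -0.17) and 1 for flight (0.24 against 0.04). Deviations of same-numbered mice correlated at 0.15 and 0.24 in the 2 Nrf2-KO pairs and 0.06 in the 1 WT pair of MdB, where each of the 3 flight mice correlated best with its own number, which is a hint from the data only. In TpB 4 of 5 Nrf2-KO and 2 of 6 WT pairs were above 0.1 (-0.54 to 0.78), and FL_KO mouse 11 was the only flight mouse that correlated best with its own number. The numbers were not taken as pairs, since not every pair was above 0.1, and the genotype comparisons could not be fitted with the block because each number belongs to 1 genotype. Klk4 in spleen stayed called for genotype under each of the alternatives added after its values had been seen, at 3.12 with limma on log2(TPM + 1), 6.13 with DESeq2 and 6.01 with FL_KO mouse 04 included, and at 5.82 to 6.75 without 1 library, the latter without FL_WT mouse 08.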

Other observations

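The genes closest to Odam over the 23 TpB libraries were looked up after the high Odam values had been seen. They were B4galnt2 (r = 0.936 on log2(TPM + 1)), Lipf (0.919), Tff2 (0.914), Lyz1 (0.913) and Nucb2 (0.91). Lipf encodes a digestive lipase, Tff2 a trefoil peptide of mucus and Lyz1 a lysozyme of secretory epithelia. Lipf ran from 0.21 to 18624 TPM with a median of 2.32, and its highest value was in GC_KO mouse 12 and the next, 15764, in GC_KO mouse 04, the mice highest in Odam. Of 8 salivary gland markers, 2 had a median of at least 1 TPM, namely Aqp5 at 4.88 to 197 TPM and Amy1 at 18.3 to 29.4 TPM. The others had medians of at most 0.42 TPM, so Aqp5 carries most of the range of the sum of all 8. This sum ran from 28 to 235 TPM with a median of 37.9. Its correlation with Odam was 0.92 (Spearman's rho 0.66), against 0.51 (0.25) for 8 oral keratinocyte markers and 0.55 (0.28) for 11 dental epithelium genes. These are descriptions over 23 libraries, in each of which all genes come from the same piece of tissue. The part of glandular tissue in the Odam levels of TpB was not tested.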
